A study of Mus musculus with 8 samples.

Results

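Genes of glycolysis, the pentose phosphate pathway and the response to hypoxia were examined in RAW264, a mouse macrophage-like cell line. The list named 44 genes chosen by function, and a gene was measured where a probe set of the mouse Clariom S array carried its symbol. Of the 44, 38 had a probe set, 1 each, among the 22206 probe sets tested, with Ero1l found under its current symbol Ero1a. The other 6, Gpi1, Pfkfb1, Pfkfb2, Eno1, G6pdx and Tkt, were not analysed here. RNA came from 4 clones of RAW264, namely the Gpr137b +/+ clones WT1 and WT2 and the Gpr137b -/- clones KO1 and KO2, made with CRISPR/Cas9. Gpr137b encodes an orphan G-protein-coupled receptor. Each clone gave 1 array without IL-4 and 1 array after 48 h with IL-4, a cytokine that turns macrophages toward the M2 state, so that 8 arrays formed 4 groups of 2. Cells given IL-4 were moved to medium with albumin in place of serum. The methods do not say whether untreated cells were moved as well, so IL-4 and medium cannot be told apart below. Each genotype was 2 clones and the edited part of the gene is not stated, so a difference between genotypes cannot be told apart from one between clones.

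Glycolysis turns glucose into pyruvate, which is either reduced to lactate and exported or oxidized in mitochondria, a step that the pyruvate dehydrogenase kinases block. The pentose phosphate pathway branches off after the hexokinase step and yields NADPH and ribose phosphate. Hypoxia-inducible factors, with Hif1a as the regulated subunit, raise many of these genes when oxygen is low, and the prolyl hydroxylases Egln1 and Egln3 mark Hif1a for degradation when oxygen is present. In macrophages, high glycolysis is known from inflammatory activation and oxidative metabolism from IL-4.

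Values are log2 of the deposited linear intensities, called log2 signal. The background of each array, set at percentile 95 of 23 antigenomic controls, lay between 6.64 and 6.78. Of the 38 members, 32 were above it on all 8 arrays, against 8732 of all 22206 probe sets. Pdk2, Pdk3, Car12 and P4ha2 were above it on some arrays, and Ldhb and Egln3 on none. All 11 macrophage markers measured were above background on every array, with a summed level between 20.36 and 20.46. None of the 4 fibroblast, 4 epithelial, 3 T cell and 2 B cell markers was above it on any array. Gpr137b itself gave log2 signals of 10.32 to 11.93 in WT and 10.00 to 11.12 in KO arrays, which overlapped, and its probe set may lie outside the edited part. Groups were compared with limma at a threshold of 0.05 on the p adjusted over all probe sets. Precision was limited by the number of arrays. A bulk signal cannot tell fewer expressing cells from less RNA per cell.

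Promoters of the members were read from a RefSeq table of build GRCm38.p6, in windows of 250 bases before to 50 after a transcription start. They were searched on both strands for ACGTG and GCGTG, the core letters known to be bound by hypoxia-inducible factors. The palindrome CACGTG counted on both strands. Windows were found for 36 of the measured members, 49 windows in all, and 39 of them (79.6%) held at least 1 match, against 43.8% of all 32851 windows. Member windows were also richer in GC, with a median of 61.3% against 52.7%, and held a median of 21 CpG against 7, so base composition differed along with the matches. The 250 bases before the start are shown for the 3 genes that differed between the WT clones and had a window, and for Pfkfb4, which had the largest positive IL-4 difference, with matches in capitals. Pfkfb4 lies at chr9:108991652-108991901 (+ strand), Pfkfb3 in its window farthest upstream at chr2:11553930-11554179 (− strand), Pdk3 at chrX:93832151-93832400 (− strand) and Car12 at chr9:66713436-66713685 (+ strand).
Pfkfb4: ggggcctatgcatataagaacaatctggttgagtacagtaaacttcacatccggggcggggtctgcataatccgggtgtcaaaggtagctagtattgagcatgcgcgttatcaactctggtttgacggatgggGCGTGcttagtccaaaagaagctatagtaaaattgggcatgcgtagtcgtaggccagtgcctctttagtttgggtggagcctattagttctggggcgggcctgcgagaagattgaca
Pfkfb3: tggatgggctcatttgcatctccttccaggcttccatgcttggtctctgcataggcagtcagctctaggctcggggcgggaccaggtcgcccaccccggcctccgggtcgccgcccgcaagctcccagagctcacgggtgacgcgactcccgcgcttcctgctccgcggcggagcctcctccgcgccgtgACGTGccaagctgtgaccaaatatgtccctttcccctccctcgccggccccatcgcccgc
Pdk3: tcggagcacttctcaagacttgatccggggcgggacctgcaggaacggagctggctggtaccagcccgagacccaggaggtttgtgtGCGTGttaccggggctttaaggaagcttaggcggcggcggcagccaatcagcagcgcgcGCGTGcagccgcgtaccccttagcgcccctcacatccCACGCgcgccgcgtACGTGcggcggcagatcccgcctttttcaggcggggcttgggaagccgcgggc
Car12: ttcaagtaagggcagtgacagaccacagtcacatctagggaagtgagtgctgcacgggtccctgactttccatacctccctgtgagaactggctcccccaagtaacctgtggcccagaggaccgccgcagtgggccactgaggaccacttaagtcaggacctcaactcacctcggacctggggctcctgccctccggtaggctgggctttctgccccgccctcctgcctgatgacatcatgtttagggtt
Pfkfb4 held 1 GCGTG, Pfkfb3 held 1 ACGTG, and Pdk3 held 1 ACGTG and 3 GCGTG. The other window of Pfkfb3, at chr2:11502091-11502340 (− strand) and not shown, held 2 ACGTG and 1 GCGTG in the bases before its start. Car12 held neither run in these letters. A match describes the sequence and was not tested as a site.

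**Figure D1:**
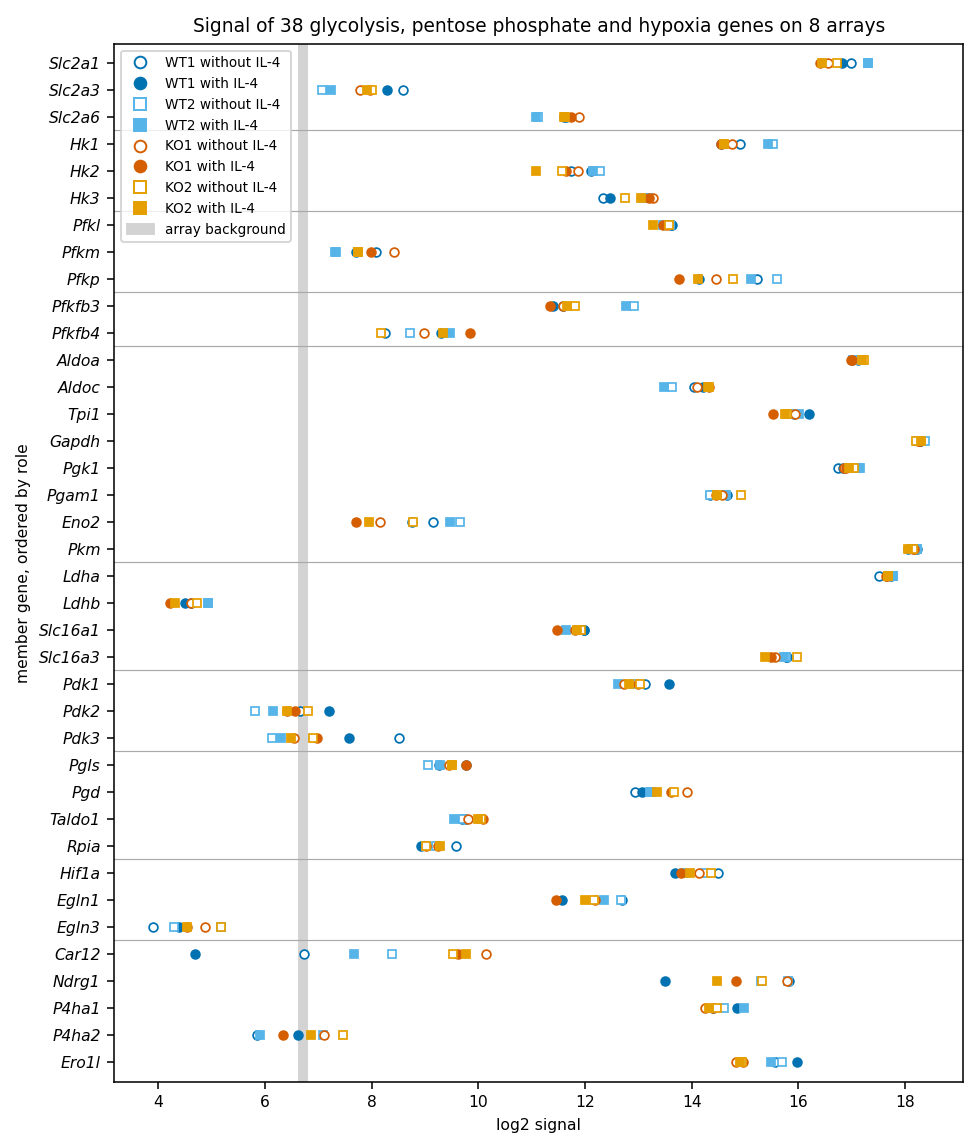
Log2 signal (x axis) of each of the 38 measured members (rows, grouped by role) on the 8 arrays, with circles for clone 1, squares for clone 2, open symbols without and filled symbols with IL-4, and the grey band for the range of array backgrounds. Each row is read on its own, since levels of different probe sets cannot be set against each other. Gapdh and Pkm varied least, Car12 most.

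The members varied about as much as other probe sets. The median range over the 8 arrays was 0.830 on the log2 scale for the 32 members above background on all arrays and 0.800 for all 8732 such probe sets. Gapdh, the glyceraldehyde phosphate dehydrogenase, had the smallest range, 0.163, and Car12, a membrane-bound carbonic anhydrase, the largest, 5.46. The plot of levels by member shows these spreads.

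The first question was how IL-4 changed these genes, and no member passed the threshold in any IL-4 comparison. In WT cells 0 of 38 members passed, where 0.036% of all probe sets did, and in KO cells 0 of 38, where 0.0315% did. For the mean effect over the 4 clones it was 0 of 38 and 0.167%. The smallest adjusted p of a member from limma was 0.359, for Pfkfb4. At an unadjusted p under 0.05 there were 6 members in WT cells (15.8%, against 3.85% of all probe sets), 1 in KO cells (2.63% against 2.77%) and 5 for the mean effect (13.2% against 4.61%). The 6 in WT cells included Egln3, which was below background on every array. The median member difference was −0.05 in WT cells and −0.13 in KO cells on the log2 scale, beside −0.01 and 0.00 over all probe sets. These comparisons share arrays with one another and with the comparison of genotypes.

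Pfkfb4, which makes and degrades the fructose bisphosphate that activates phosphofructokinase, was the 1 member higher with IL-4 in all 4 clones. That direction was found in 7.93% of all probe sets and in 12.2% of those above background on every array. The log2 signal of Pfkfb4 in WT1, WT2, KO1 and KO2 was 8.26, 8.72, 8.99 and 8.17 without IL-4. With IL-4 it was 9.30, 9.48, 9.84 and 9.34 in the same order. All 4 arrays with IL-4 lay above all 4 without it. The share of all probe sets separated by IL-4 this fully was not counted, here or for Ndrg1, Hif1a and Idh1 below. The difference averaged 0.95 ± 0.18 (SD, n = 4 clones), a 1.94-fold higher signal, with a 95% confidence interval of 0.43 to 1.48 and an adjusted p of 0.359. When each clone was its own block, so that its 2 arrays were compared directly, the adjusted p was 0.0603. Its paralog Pfkfb3 was lower with IL-4 in every clone, by a mean of 0.18 ± 0.05 (SD, n = 4 clones), far within the gap between its clones given below.

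Lower signals with IL-4 in all 4 clones were found for 8 members (21.1%), namely Pfkl, Pfkp, Pfkfb3, Eno2, Ldhb, Hif1a, Egln1 and Ndrg1. Of all probe sets 8.44% had this direction. Among probe sets above background on every array it was 10.8%, and 7 of the 8 members remained, without Ldhb. The same 7 had the direction after quantile normalization. None of the 8 passed the threshold.

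Ndrg1, a hypoxia-linked gene of stress and differentiation responses, had the largest difference. Ndrg1 gave 15.83, 15.80, 15.78 and 15.33 in WT1, WT2, KO1 and KO2 without IL-4, and 13.50, 15.30, 14.83 and 14.48 with IL-4. Every array with IL-4 lay below every array without it. The difference was −2.33 in WT1, against −0.50, −0.95 and −0.85 in WT2, KO1 and KO2, so that WT1 stood apart. The mean was −1.16 (SE 0.351, adjusted p = 0.654, or 0.234 with each clone as its own block). Without WT2 it was −1.61, and without WT1 it was −0.70. Such fits leave 1 array in a group, so only their sizes are given.

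Pfkp, the platelet-type phosphofructokinase subunit, gave 15.23, 15.59, 14.45 and 14.77 in WT1, WT2, KO1 and KO2 without IL-4, and 14.14, 15.11, 13.76 and 14.12 with IL-4. Arrays with and without IL-4 overlapped, because WT2 was high in both conditions, while within each clone the array with IL-4 was lower. The mean difference was −0.72 ± 0.26 (SD, n = 4 clones, adjusted p = 0.769, or 0.203 with each clone as its own block). The liver-type subunit Pfkl gave 13.63, 13.59, 13.55 and 13.58 in WT1, WT2, KO1 and KO2 without IL-4, and 13.62, 13.46, 13.46 and 13.27 with it. Its mean difference was −0.14 ± 0.13 (SD, n = 4 clones). The muscle-type subunit Pfkm gave 8.08, 7.33, 8.42 and 7.74 without IL-4 in WT1, WT2, KO1 and KO2, and 7.71, 7.31, 7.99 and 7.74 with it. For Pfkm the clones differed more than the conditions.

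Hif1a gave 14.50, 14.24, 14.13 and 14.36 in WT1, WT2, KO1 and KO2 without IL-4, and 13.69, 13.85, 13.80 and 13.96 with IL-4. The conditions did not overlap, and the mean difference was −0.48 ± 0.22 (SD, n = 4 clones, adjusted p = 0.700). Egln1, the main oxygen-sensing prolyl hydroxylase, differed by −1.11, −0.32, −0.73 and −0.17 in WT1, WT2, KO1 and KO2 (mean −0.58, adjusted p = 0.898). With each clone as its own block the adjusted p was 0.496 for Hif1a and 0.513 for Egln1. Eno2, an enolase best known from neurons, had a mean difference of −0.47 ± 0.27 (SD, n = 4 clones). Hif1a and its hydroxylase Egln1 thus had lower values with IL-4 in each clone, and neither passed.

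**Figure D2:**
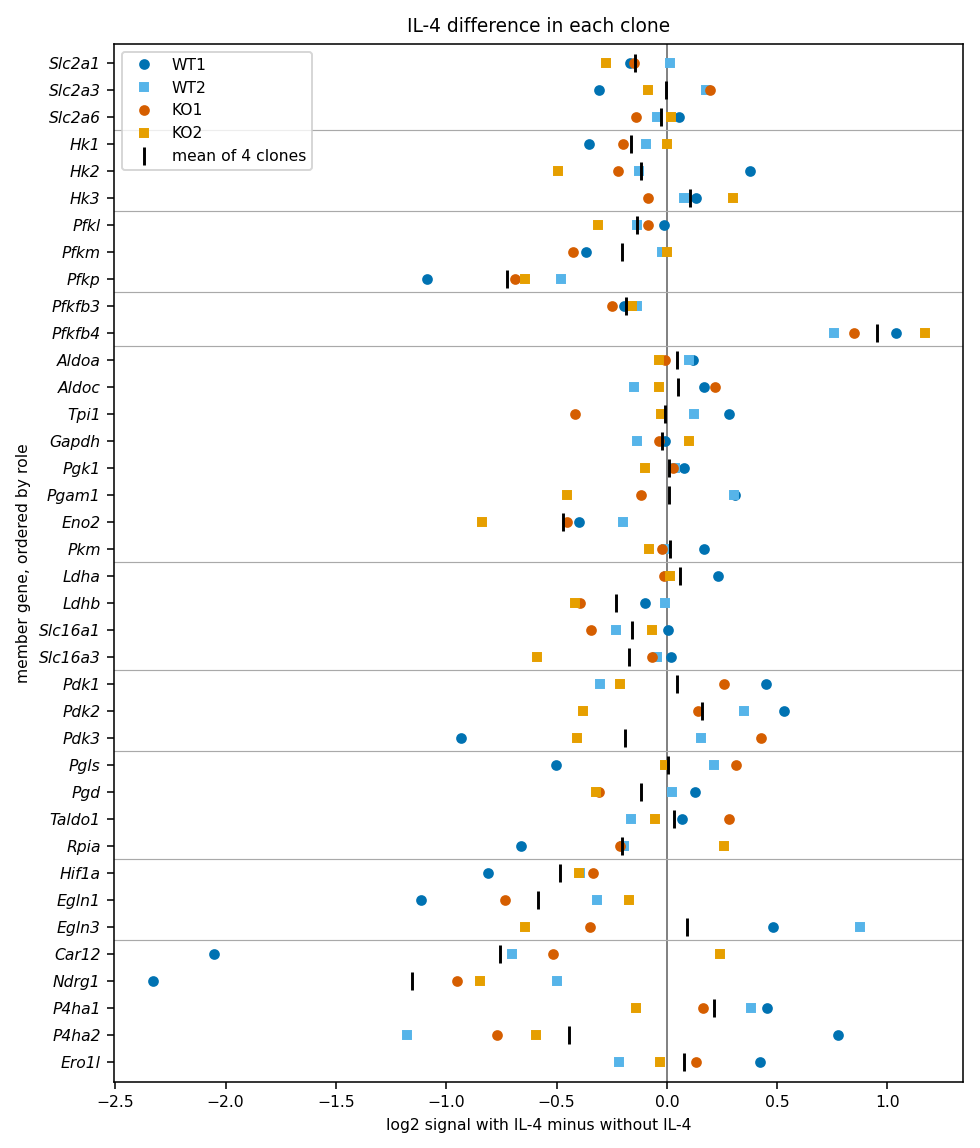
Difference of log2 signal with minus without IL-4 (x axis) for each member (rows) in each clone (symbols), with a black bar for the mean of the 4 clones. Pfkfb4 lies to the right in all 4 clones, between 0.76 and 1.17, while Ndrg1, Pfkp, Hif1a and Egln1 lie to the left in all 4.

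Hypoxia-linked members had IL-4 differences of both signs. P4ha1, a catalytic subunit of the collagen prolyl hydroxylase, gave 14.40, 14.60, 14.24 and 14.47 in WT1, WT2, KO1 and KO2 without IL-4, and 14.86, 14.99, 14.41 and 14.33 with it. Its difference was positive in WT1, WT2 and KO1 and negative in KO2, with a mean of 0.21 ± 0.27 (SD, n = 4 clones). P4ha2, its paralog, gave 5.85, 7.10, 7.11 and 7.47 without IL-4 in WT1, WT2, KO1 and KO2, and 6.62, 5.92, 6.34 and 6.87 with it, which was near background throughout. Over the 5 hypoxia-linked members Car12, Ndrg1, P4ha1, P4ha2 and Ero1l, mean differences ran from −1.16 to 0.21.

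The study's second question was whether the IL-4 response depended on Gpr137b. For the difference of the IL-4 effects (KO minus WT) limma called 0 of 38 members and 0 of 22206 probe sets (0%), and 1 member (Egln3, below background on every array) had an unadjusted p under 0.05, against 1.52% of all probe sets. The median member difference was −0.06, beside 0.00 over all and −0.03 over probe sets above background on every array. For 5 members (13.2%), Aldoa, Tpi1, Pgam1, Pgd and Egln3, the IL-4 difference was positive in both WT and negative in both KO clones, where 3.81% of all probe sets had this pattern. The opposite pattern was seen in 0 members, against 4.62% of all. Among probe sets above background on every array, 4.08% had the first pattern and 2.38% the opposite. After quantile normalization Pgam1 and Egln3 alone kept the first pattern.

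Pgam1, the phosphoglycerate mutase of lower glycolysis, gave 14.35 and 14.34 in WT1 and WT2 without IL-4 and 14.65 and 14.64 with it. In KO1 and KO2 it gave 14.56 and 14.92 without IL-4 and 14.45 and 14.47 with it. The WT clones thus moved up alike, while the KO clones ended lower than they began. The effects differed by −0.59 (SE 0.295, adjusted p = 1.0). Egln3 gave 3.90, 4.31, 4.88 and 5.18 without IL-4 in WT1, WT2, KO1 and KO2, and 4.39, 5.19, 4.53 and 4.54 with it, all under background.

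Between genotypes no member passed the threshold either. Without IL-4, 0 of 38 members passed in KO minus WT, where 0.018% of all probe sets did, and with IL-4, 0 of 38, where 0.0315% did. At an unadjusted p under 0.05 there were 6 members without IL-4 (15.8%, against 4.41% of all) and 7 with it (18.4%, against 3.53%). The 6 without IL-4 included Egln3, which was below background on every array. Median member differences were −0.03 and −0.13, beside 0.00 and 0.02 over all probe sets. All 4 KO arrays lay above all 4 WT arrays for 3 members (7.89%), Pgd, Taldo1 and Car12, a pattern found in 2.36% of all probe sets. All 4 lay below for 2 members (5.26%), Slc2a1 and Ero1l, against 2.54% of all. Among probe sets above background on every array, 3.22% lay above and 3.81% below. All of these members but Car12 belong to that class. After quantile normalization Taldo1 left the first group and Eno2 joined the second.

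Car12 had the widest separation. Its log2 signal was 6.74, 8.37, 10.14 and 9.53 in WT1, WT2, KO1 and KO2 without IL-4, and 4.68, 7.67, 9.62 and 9.77 with IL-4. The KO arrays lay at or above 9.53 and the WT arrays at or below 8.37, with WT1 with IL-4 under background. KO minus WT was 2.28 without IL-4, with a 95% confidence interval of 0.31 to 4.25 (4.85-fold, adjusted p = 0.993), and 3.52 with IL-4, with an interval of 1.55 to 5.49 (adjusted p = 0.880). With the WT1 signal under background raised to that background, the difference with IL-4 was 2.50, or at least 5.67-fold (adjusted p = 0.629). The WT clones were themselves apart, as given below, which entered the error of this comparison. Fits lacking 1 clone leave 1 array in a group, so only their sizes are given, with WT1 raised to background. Without IL-4 the difference was 3.10 lacking WT2, 1.46 lacking WT1, 1.97 lacking KO1 and 2.58 lacking KO2. With IL-4 it was 2.98, 2.03, 2.58 and 2.43 in the same order.

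Pgd, the phosphogluconate dehydrogenase that yields NADPH, gave 12.94, 13.22, 13.91 and 13.67 in WT1, WT2, KO1 and KO2 without IL-4, and 13.07, 13.24, 13.60 and 13.35 with it. The genotypes were 0.11 apart at their nearest arrays, KO2 and WT2 with IL-4. KO minus WT was 0.71 without IL-4 (SE 0.222, adjusted p = 0.993) and 0.32 with it. Taldo1, the transaldolase, gave 9.70, 9.72, 9.81 and 10.05 without IL-4 in WT1, WT2, KO1 and KO2, and 9.77, 9.55, 10.09 and 9.99 with it. Its genotypes were separated by 0.04, less than the spread of either. Of the 4 pentose phosphate members, 3 had a positive KO minus WT difference without IL-4 and 4 with it, and none passed.

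Slc2a1, the main glucose transporter of most dividing cells, gave 16.98, 17.30, 16.56 and 16.72 in WT1, WT2, KO1 and KO2 without IL-4, and 16.81, 17.31, 16.41 and 16.44 with it. The KO arrays were the 4 lowest, with KO minus WT of −0.50 and −0.63 without and with IL-4 (SE 0.241, adjusted p = 0.993 and 1.0). Ero1l, an oxidase that drives disulfide bond formation in the endoplasmic reticulum, gave 15.55, 15.70, 14.83 and 14.95 without IL-4 in WT1, WT2, KO1 and KO2, and 15.97, 15.48, 14.96 and 14.91 with it. Its lowest WT array was 0.52 above its highest KO array, with KO minus WT of −0.74 and −0.79 (SE 0.229, adjusted p = 0.993 and 1.0). Eno2 gave 9.15, 9.66, 8.16 and 8.79 without IL-4 and 8.75, 9.46, 7.70 and 7.95 with it, in the same order. The highest KO array passed the lowest WT array by 0.04, and KO minus WT was −0.93 and −1.28.

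**Figure D3:**
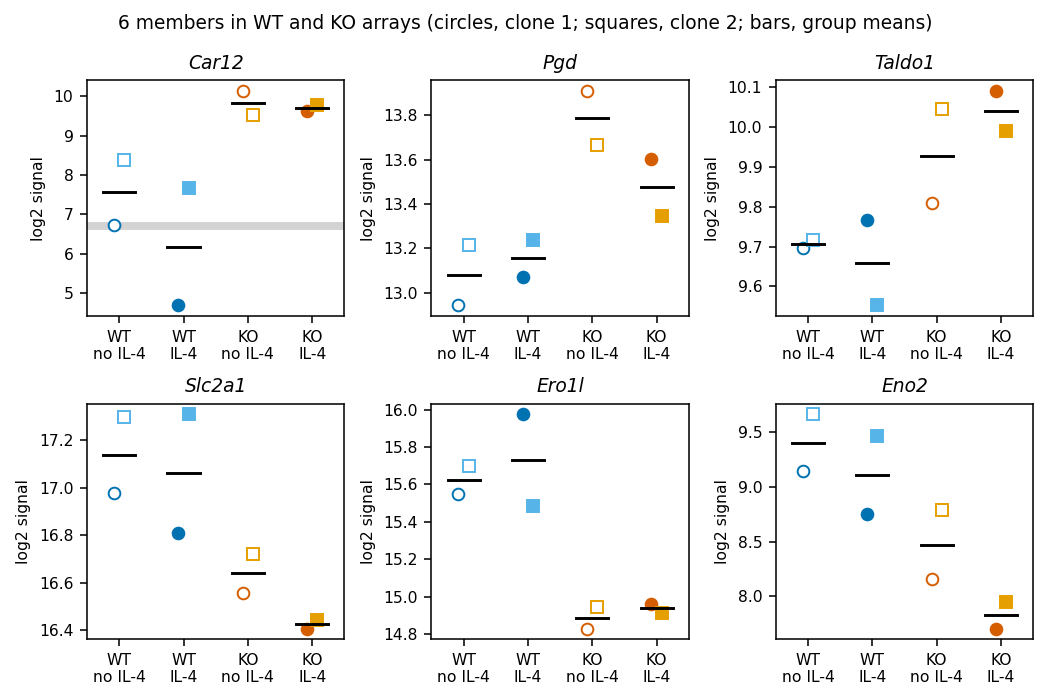
Log2 signal (y axis, own scale in each panel, not starting at 0) of Car12, Pgd, Taldo1, Slc2a1, Ero1l and Eno2 in the 4 groups, with circles for clone 1, squares for clone 2, black bars for group means and a grey band for background. The genotypes do not overlap in the first 5 panels, and the WT clones of Car12 lie far apart.

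The clones of one genotype were compared next, since each group rests on 2 of them. Between the WT clones 4 of 38 members (10.5%) passed, where 1.97% of all probe sets did. Pfkfb3 and Slc2a3 were above background on every array of both clones, and Car12 and Pdk3 were not. With signals under background raised to it, an alternative chosen after seeing the data, 2 members passed, Pfkfb3 and Slc2a3. As measured, Pfkfb3 and Car12 were higher in WT2, a direction called for 0.928% of all, and Slc2a3 and Pdk3 were lower, against 1.04%. The median absolute member difference was 0.350, beside 0.239 for all probe sets and 0.304 for those above background on every array. At an unadjusted p under 0.05 there were 13 members (34.2%), against 14.9% of all. Between the KO clones 0 members passed, where 0.0495% of all did, and 1 member (2.63%, against 3.70%) had an unadjusted p under 0.05. These p-values rest on the 2 arrays of each clone and speak of these clones only.

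Pfkfb3, the counterpart of Pfkfb4 with the stronger kinase activity, gave 12.91 and 12.78 in WT2 without and with IL-4. In WT1 it gave 11.59 and 11.40, in KO1 11.59 and 11.34, and in KO2 11.82 and 11.66. WT2 alone stood above the other 3 clones. It was 2.55-fold higher than WT1 (log2 difference 1.35, SE 0.210, adjusted p = 0.0265). Car12 was higher in WT2 by a measured log2 difference of 2.31 (SE 0.350, adjusted p = 0.0245), with 1 of the 2 WT1 arrays under background. With that array raised to its background the difference was 1.30, or at least 2.46-fold, and did not pass (adjusted p = 0.0726).

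Slc2a3, a high-affinity glucose transporter, gave 8.60 and 8.29 in WT1 without and with IL-4 but 7.07 and 7.24 in WT2. KO1 gave 7.78 and 7.98 and KO2 8.0 and 7.92, between the WT clones. WT1 was 2.44-fold above WT2 (log2 difference −1.29, SE 0.232, adjusted p = 0.0411). Pdk3, a pyruvate dehydrogenase kinase, gave 8.52 and 7.58 in WT1 and 6.14 and 6.30 in WT2, the latter under background. KO1 gave 6.55 and 6.97 and KO2 6.91 and 6.50, on both sides of background. WT1 was therefore at least 2.60-fold above WT2 (measured means 8.05 and 6.22, adjusted p = 0.0405). With its signals under background raised to it, Pdk3 did not pass (adjusted p = 0.0629).

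Other members differed between the WT clones without passing. Hk1, the housekeeping hexokinase, was 0.76 higher in WT2 (adjusted p = 0.149) and Hk3, a hexokinase of myeloid cells, 0.75 higher (adjusted p = 0.163). Hk1 gave 14.90, 15.53, 14.75 and 14.61 without IL-4 in WT1, WT2, KO1 and KO2. With IL-4 it gave 14.55, 15.44, 14.55 and 14.61. Hk3 gave 12.33, 13.10, 13.28 and 12.74 without IL-4 in WT1, WT2, KO1 and KO2, and 12.46, 13.18, 13.19 and 13.04 with it. For Hk3 WT1 was the lowest clone in both conditions. Pdk2 gave 6.67, 5.81, 6.42 and 6.80 without IL-4 and 7.20, 6.16, 6.57 and 6.42 with it, in the same order. WT1 was at least 1.20-fold above WT2 for Pdk2. Its adjusted p was 0.102 as measured and 0.647 with signals under background raised to it. The largest KO2 minus KO1 difference was −0.66 for Pfkfb4 (adjusted p = 1.0).

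**Figure D4:**
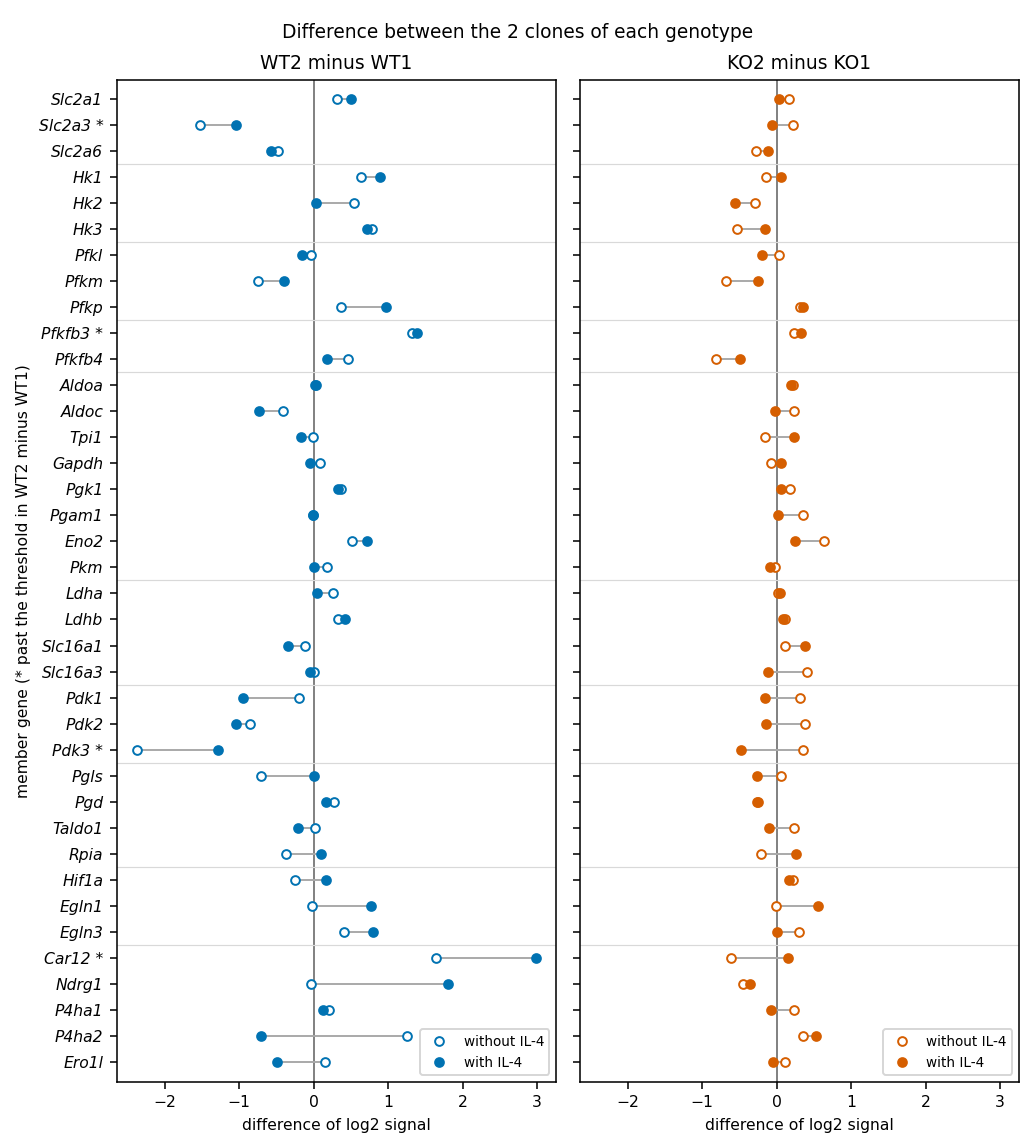
Difference of log2 signal between the clones of each genotype (x axis, WT2 minus WT1 at left and KO2 minus KO1 at right) for each member (rows), open without and filled with IL-4, joined by a line. Asterisks mark the 4 members past the threshold as measured, and the points spread wider between the WT clones than between the KO clones.

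The clone differences were set beside medians over all probe sets above background on every array and over such genes of each whole chromosome. Genes close to a member were not examined separately. Probe sets above background on all arrays had a median WT2 minus WT1 of −0.19 without IL-4 and −0.02 with it, and of −0.01 and −0.05 after quantile normalization. Genes of chromosomes 2, 6, 9 and X, which carry Pfkfb3, Slc2a3, Car12 and Pdk3, had medians between −0.22 and −0.10 without IL-4 and between −0.04 and 0.00 with it. On chromosome 14, which carries Ero1l, the median over 270 genes was −0.74 without IL-4 and −0.53 with it, while Ero1l itself was 0.15 and −0.49. The share of this shift in the Ero1l values was not tested. Among the macrophage markers Fcgr1, an Fc receptor, was lower in WT2 (log2 difference −1.44, adjusted p = 0.0298), and no other marker passed in any comparison.

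The remaining members are given by role. Hk2, the inducible hexokinase, gave 11.74, 12.27, 11.87 and 11.58 without IL-4 in WT1, WT2, KO1 and KO2, and 12.11, 12.15, 11.65 and 11.08 with it. With IL-4 both KO clones were below both WT clones, by a mean of 0.76 on the log2 scale (adjusted p = 1.0), and without IL-4 the genotypes overlapped. Aldoc, a minor aldolase, gave 14.04, 13.63, 14.10 and 14.33 without IL-4 and 14.21, 13.48, 14.32 and 14.30 with it, with WT2 lowest in both conditions. Slc2a6, a glucose transporter of the same family, had its lowest values, 11.12 and 11.07, in WT2 as well, and its highest, 11.88, in KO1 without IL-4.

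Gapdh, Pkm, Aldoa and Ldha had the 4 smallest ranges of the measured members. Pkm, the pyruvate kinase, gave 18.05, 18.22, 18.17 and 18.14 without IL-4 and 18.22, 18.22, 18.15 and 18.06 with it. Ldha, the lactate dehydrogenase subunit that favours lactate, gave 17.51, 17.78, 17.65 and 17.67 without IL-4 and 17.74, 17.78, 17.64 and 17.68 with it. Neither varied by more than 0.27 over the 8 arrays, and their groups overlapped. Slc16a3, the lactate exporter, gave 15.77, 15.77, 15.56 and 15.97 without IL-4 and 15.79, 15.73, 15.49 and 15.38 with it, and was lowest in KO2 with IL-4. The ranges of Aldoa, Tpi1 and Pgk1, enzymes of the middle of the pathway, were 0.231, 0.676 and 0.406, and that of the lactate transporter Slc16a1 was 0.512. Ldhb stayed under background, between 4.23 and 4.94.

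Pdk1, the kinase of this family best known as a hypoxia target, gave 13.12, 12.92, 12.72 and 13.04 without IL-4 in WT1, WT2, KO1 and KO2, and 13.57, 12.62, 12.98 and 12.82 with it. Its IL-4 difference was positive in WT1 and KO1 and negative in WT2 and KO2. Pgls, the lactonase of the pentose phosphate pathway, gave 9.77, 9.06, 9.45 and 9.51 without IL-4 and 9.27, 9.28, 9.77 and 9.50 with it. Rpia, the ribose phosphate isomerase, gave 9.58, 9.21, 9.24 and 9.03 without IL-4 and 8.92, 9.02, 9.03 and 9.29 with it. For Pgls and Rpia the order of the clones changed with IL-4.

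Further genes of the same pathways were counted from 5 lists that did not overlap the members. None of 37 measured glycolysis and pyruvate genes, 16 genes of branch pathways and 10 regulators of hypoxia-inducible factors passed in any of the 8 comparisons. At an unadjusted p under 0.05, no comparison held more than 4, 4 and 1 of them. Of 15 pentose phosphate and NADPH genes 1 passed for the mean IL-4 effect, where 0.167% of all probe sets did. It was Idh1, the cytosolic isocitrate dehydrogenase that yields NADPH. Idh1 gave 13.90, 14.31, 14.36 and 14.85 without IL-4 in WT1, WT2, KO1 and KO2, and 15.70, 15.33, 15.88 and 16.15 with it. All 4 arrays with IL-4 lay above all 4 without, and the mean difference was 1.41 (SE 0.190, adjusted p = 0.0399). The Idh1 call did not hold in fits lacking WT1, KO1 or KO2, each of which leaves 1 array in a group.

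The other calls in these lists were between clones. Of all probe sets 1.97% passed between the WT clones and 0.0495% between the KO clones. Idh2, the mitochondrial counterpart of Idh1, was lower in WT2 than in WT1 (log2 difference −1.30, adjusted p = 0.0405). Me1, the cytosolic malic enzyme, gave 11.67 and 11.24 in KO2 and between 6.85 and 8.35 elsewhere, and was higher in KO2 than in KO1 (log2 difference 3.20, adjusted p = 0.0337). Without the dimmest 40% of probe sets its adjusted p was 0.059. Of 28 further hypoxia-linked genes 2 passed, both higher in WT2 than in WT1. At an unadjusted p under 0.05 there were 11 of the 28 between the WT clones (against 14.9% of all probe sets) and 6 between the KO clones (3.70%). For KO minus WT there were 5 without IL-4 (4.41%) and 5 with it (3.53%). For IL-4 there were 4 in WT cells (3.85%), 3 in KO cells (2.77%), 4 for the mean effect (4.61%) and 0 for the difference (1.52%). Nos2, the inducible nitric oxide synthase, gave 13.70 and 12.66 in WT2 against 10.69 and 9.82 in WT1 (log2 difference 2.92, adjusted p = 0.00402). Hmox1, the inducible heme oxygenase, differed by 1.26 (adjusted p = 0.0336).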

How the data were processed

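RNA of 4 RAW264 clones, with and without IL-4 for 48 h, was hybridized to 8 mouse Clariom S arrays. The authors normalized the scans by SST-RMA in the Transcriptome Analysis Console, and RMA is what the submitters' processing notes list. The deposited values are linear intensities, and their log2 was taken. Normalization draws arrays toward a common distribution, so a shift common to most genes is not measured. In the deposited values the arrays were not fully alike. Without IL-4 the median WT2 minus WT1 over probe sets above background on all arrays was −0.19, and −0.01 after quantile normalization. Of 28846 rows, 6640 were control rows. Of the 22206 tested, 19572 had 1 gene symbol in the platform annotation and 2634 had none here.

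The members, lists and tests were chosen with earlier results of these data known. limma 3.58.1 in R 4.3.3 was fitted to all 8 arrays with 4 group means and no block, and clones were compared in a fit with 1 level per clone and 1 IL-4 effect per genotype. P-values were adjusted by Benjamini-Hochberg over all probe sets of a comparison. If no array of a group was above background for a gene, the fold is a lower bound, the brighter group's mean against, per array, the higher of that array's background and the gene's own signal. Every array's value was given for members past the threshold and for the 3 largest differences in each direction of each comparison. It was also given for 12 members chosen for their roles, except G6pdx, which had no probe set. Genes of other lists were named if they passed.

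Arrays of one clone are paired by the clone numbers in the authors' sample list, which match the replicate numbers of the labels. Deviations of a clone's arrays from their group means correlated at 0.354 between the WT arrays and 0.161 between the KO arrays. Alternatives were a fixed or a random clone block, quantile normalization, a fit without the 40% dimmest probe sets, a robust eBayes with trend, calls at a fold of 2 or more and an unadjusted p under 0.05, and fits lacking 1 clone each. Raising signals of members above background on some arrays to the background elsewhere was added after seeing the data. The fitting was tested on simulated data. No source used here gives the genome build of the authors.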

Additional observations from a re-analysis of the deposited data

Results flagged for a closer look

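For 4 members above background on every array, the IL-4 difference was positive in both WT clones and negative in both KO clones. The difference of the effects (KO minus WT, limma) was −0.13 for Aldoa, −0.43 for Tpi1, −0.59 for Pgam1 and −0.39 for Pgd on the log2 scale, each with an adjusted p of 1.0. This pattern was found in 4.08% of the 8732 probe sets above background on every array and in 3.81% of all probe sets. After quantile normalization Pgam1 alone of these 4 kept it.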

How the results depend on the processing

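No called result changed sign. Among the 55 gene results followed, the Ndrg1 difference of the IL-4 effects, which did not pass, changed sign without WT1 (0.51 to −0.40). So did the small KO cell effects of Pgls and Taldo1 without KO1 (to −0.01 and −0.06), and 2 of the medians below crossed 0. The Car12 difference of the IL-4 effects, 0.23 with signals raised to background, was −0.15 without KO2 and −0.12 without WT2. Member effects outside these results were not followed. Some differed in sign between clones, such as Pdk1 in KO cells (0.26 in KO1 and −0.21 in KO2). With a fold of at least 2 and an unadjusted p under 0.05, the members called were 1 in WT cells (Ndrg1), 1 in KO cells (Pfkfb4), 1 for the mean effect (Ndrg1), 1 for the difference (Egln3), and for KO minus WT 1 without IL-4 (Car12) and 2 with it (Car12 and Eno2). A trend and robust eBayes called 7 members between the WT clones, adding Hk1, Pfkp and Hk3. With signals under background raised to it for Car12, Pdk2, Pdk3 and P4ha2, chosen after seeing the data, 2 members (Pfkfb3 and Slc2a3) were called there. The share of all probe sets called at these settings is not given here, so these counts cannot be set against it. With the clone as a random replicate block, or as a fixed one in the IL-4 comparisons, which alone allow it, 0 members were called, as without it, and the Pfkfb4 mean effect stayed at 0.95. Leaving out each clone, the median member difference ran from −0.050 to 0.036 in WT cells and −0.127 to −0.121 in KO cells. It ran from −0.113 to −0.065 for the difference of the IL-4 effects. For KO minus WT it ran from −0.047 to 0.0011 without IL-4 and −0.106 to −0.021 with it. Over members above background on all arrays the median was −0.079 in KO cells and 0.019 for WT2 minus WT1. Quantile normalization gave −0.119 in KO cells and −0.052 for KO minus WT without IL-4. Of 430 values for 55 gene results, 403 kept their side of the threshold, 17 moved by more than 1 SE, 4 passed and 6 no longer did, the last for Idh1, Me1, Car12 and Pdk3. These values include fits lacking 1 clone, where a group of 2 arrays is left with 1, taken to vary like the others. Signals near background carry little measurement.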
